A study of Homo sapiens with 5 samples.

Results

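Genes of G1/S control and DNA replication were compared between TE7 clones that carried a CDH26 construct and TE7 clones that carried a control construct. TE7 is a human esophageal carcinoma cell line, and CDH26 encodes a cadherin, a calcium-dependent adhesion protein. The list held 53 gene symbols of this function, drawn up with earlier results of these data known, and 33 of them had a probe set with a gene name in the table analysed, out of 14812 named genes in all. Per the labels, cells were transduced with pMIRNA1-puro-control (2 clones) or pMIRNA1-puro-CDH26 (3 clones), grown from single cells to confluency and then kept for 24 h in RPMI with 1.8 mM calcium. Both groups thus share the vector backbone, the confluent state and the calcium medium; each clone was measured on 1 Affymetrix Gene 2.0 ST array. Each value is a log2 departure from the average of the control pair. Whether a gene is expressed above background, or whether the cells carry the markers of their labelled origin, cannot be read from such values. Precision is limited by how few arrays there are, and the clones of a group differ from one another as separate clones do.

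Entry into S phase is driven by cyclin D with CDK4 or CDK6 and by cyclin E with CDK2, which phosphorylate the retinoblastoma protein and free E2F transcription factors. E2F factors in turn drive genes for origin licensing, the replicative helicase, nucleotide synthesis and the E-type cyclins. In G1 the origin recognition complex, CDC6 and CDT1 load the MCM helicase onto DNA, and MCM10, CDC45 and the GINS complex then help to activate it.

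Genes of this group lay on both sides of the controls in the CDH26 clones. The cyclin genes CCNE1, CCND1 and CCNE2 had log2 differences of −0.80, −0.62 and −0.32, the helicase activator MCM10 −0.55, the ribonucleotide reductase subunit RRM1 −0.53 and the phosphatase CDC25A −0.42. On the other side the helicase subunit MCM6 had a difference of 0.32 and the repressor E2F7 one of 0.31. In RNA of whole cultures, fewer cells in a phase of the cycle and less RNA per cell cannot be told apart. No gene of this group passed the adjusted threshold of 0.05 (limma with Benjamini-Hochberg adjustment over 14812 genes; smallest adjusted p of a member 0.626), and neither did any other gene, so that 0% of all named genes were called in either direction. At an unadjusted p under 0.05 there were 7 members. Of these, 5 were lower in the CDH26 clones (CDC6, MCM10, CCNE2, CDK4 and CDC25A) and 2 were higher (MCM6 and E2F7), while 4% of all named genes were lower and 3.51% higher by that criterion. The count of lower members was 3 without CDH26 clone 1 or 2, where 2.72% and 1.67% of all named genes were lower, and 8 without CDH26 clone 3, where 5.55% were. The count of higher members was 1 without CDH26 clone 1 or 2, where 2.21% and 1.87% of all named genes were higher. It was 2 without CDH26 clone 3, where 4.11% were. The clones of the 2 groups did not overlap in 14 members. All CDH26 clones were below both controls in 8 (CDC6, MCM10, RRM1, CCNE1, CCNE2, CCND1, CDK4 and CDC25A), or 24.2% of members against 9.93% of all named genes. They were all above both in 6 (CDT1, MCM6, GINS3, RRM2, TYMS and E2F7), or 18.2% against 8.98%.

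Exact ties between arrays are common in the deposited table, and a gene whose tied values fall in both groups cannot separate them. Of the 33 members, 24 (72.7%) had a different value on each array, against 46.3% of all named genes. Among these 24, the same 8 and 6 genes make 33.3% below and 25% above, set against 18.6% and 16.4% of the 6857 named genes with 5 different values. With control clone 1 left out, 13 members lay below and 12 above, against 27% and 25.9% of all named genes. With control clone 2 left out it was 18 and 12, against 25.7% and 23.8%.

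**Figure D1:**
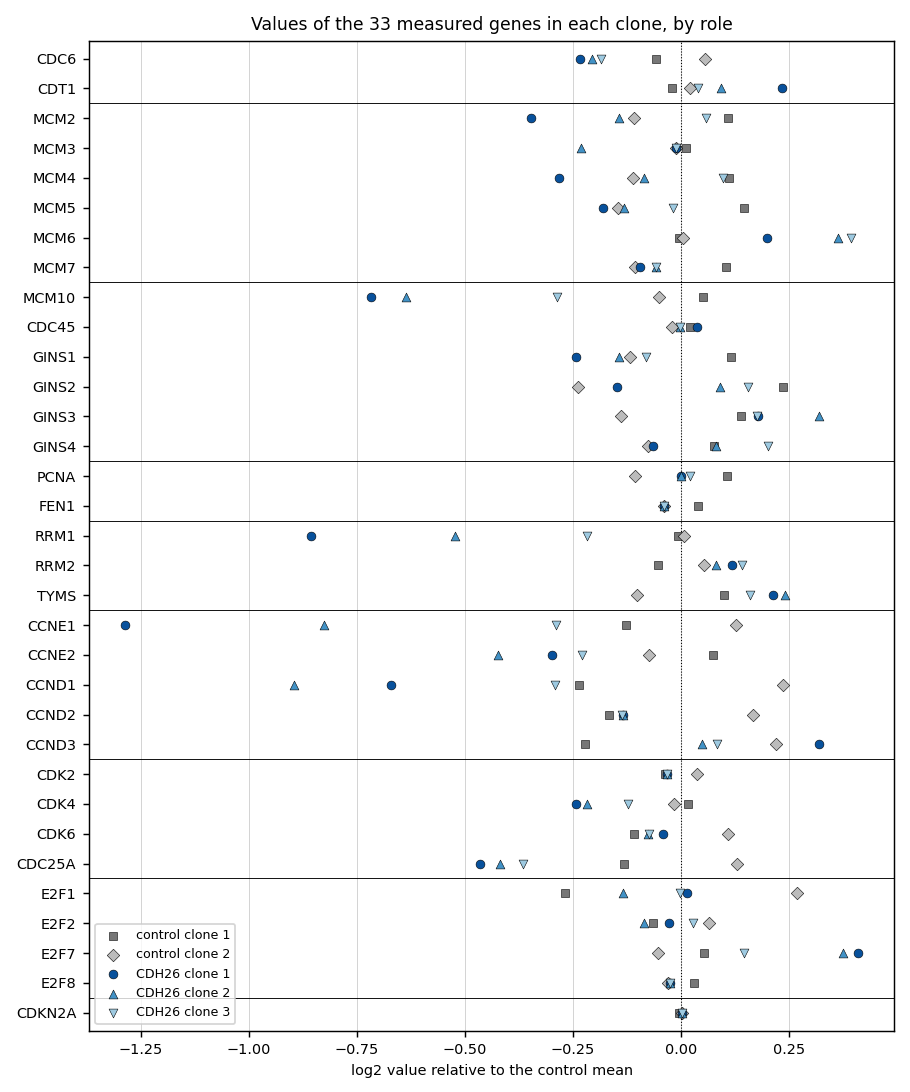
Log2 value relative to the control mean (horizontal axis) of the 33 measured genes in each of the 5 clones, with lines between the role groups in the order licensing, MCM subunits, helicase activation, clamp and flap nuclease, nucleotide supply, cyclins, kinases and CDC25A, E2F factors, and CDKN2A. CCNE1 spreads furthest, from −1.29 in CDH26 clone 1 to 0.13 in control clone 2, and in MCM6 and E2F7 all CDH26 clones lie to the right of both controls.

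The transgene was read first as a check of the labels. CDH26 was at 2.87, 3.01 and 2.63 in CDH26 clones 1 to 3, against 0.01 and −0.01 in control clones 1 and 2. Its difference of 2.84 ± 0.13 (SE) did not pass the adjusted threshold (limma, adjusted p = 0.25). Among the 6857 genes with 5 different values it did (limma, adjusted p = 0.0106). It did not pass with array weights, a replicate block or trend and robust variance (limma, adjusted p = 0.376, 0.563 and 0.64). Nor did it pass without CDH26 clone 1, 2 or 3 (limma, adjusted p = 0.721, 0.77 and 0.23). Of 18 leukocyte, fibroblast and endothelial markers, 8 were measured. Their median was at 0.08, 0.02 and 0.01 in CDH26 clones 1 to 3, against −0.01 and 0.01 in control clones 1 and 2. In 2 of the 8 (25%, against 8.98% of all named genes) all CDH26 clones were above both controls. These were LUM, a matrix proteoglycan, with a difference of 1.59 ± 0.42 (SE), and CD68, a lysosomal membrane protein of macrophages and other cells, with 1.07 ± 0.33. The other 6 differed by less than 0.05 in either direction. Of these, CD14 had all CDH26 clones below both controls (12.5% of the 8, against 9.93% of all named genes), with a difference of −0.04. What part LUM and CD68 have in the results here was not tested.

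Promoter windows are shown for the members that separated the groups and held a match to an E2F site, and for CCNE1. RefSeq start sites (GRCh38.p14) were listed for 25 of the 33 members. The 250 bases before each start were searched on both strands for 4 forms of the E2F site: TTTCCCGC, TTTCGCGC, TTTGCCGC and TTTGGCGC. Other forms of the site were not searched, so a member without a match here may still hold one. A match was present in 10 of 25 members (40%), against 4.59% of the 10736 named genes of the array with a listed promoter and 12.1% of 33 mitotic genes. It was present in 3 of 6 members whose CDH26 clones all lay above the controls (CDT1, MCM6 and TYMS) and in 1 of 6 listed members whose CDH26 clones all lay below (CDC25A). The higher members without a match were GINS3, RRM2 and E2F7, and the listed lower ones CDC6, MCM10, RRM1, CCNE1 and CDK4. Of 13 listed members whose clones overlapped between groups it was present in 6 (46.2%), namely MCM3, MCM7, GINS2, PCNA, E2F1 and E2F2. The shares of higher and lower members rest on 6 genes each and were not tested against each other. A match is a string in a window, not a shown binding site. The windows are given below 5′ to 3′ on the strand of the gene, with the matches in capitals; CCNE1, the member with the largest difference, had none.
MCM6 (chr2:135876444-135876693, minus strand): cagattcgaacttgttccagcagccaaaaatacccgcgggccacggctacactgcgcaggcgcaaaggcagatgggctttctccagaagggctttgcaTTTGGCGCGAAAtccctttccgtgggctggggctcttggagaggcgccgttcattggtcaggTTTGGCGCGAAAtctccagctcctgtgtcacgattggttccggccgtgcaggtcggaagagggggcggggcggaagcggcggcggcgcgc
CDT1 (chr16:88803539-88803788, plus strand): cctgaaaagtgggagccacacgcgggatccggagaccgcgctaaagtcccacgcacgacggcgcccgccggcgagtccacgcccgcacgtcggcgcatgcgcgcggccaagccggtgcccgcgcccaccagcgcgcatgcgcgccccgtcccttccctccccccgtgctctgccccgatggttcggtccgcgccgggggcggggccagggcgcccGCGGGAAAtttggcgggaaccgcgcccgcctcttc
TYMS (chr18:657403-657652, plus strand): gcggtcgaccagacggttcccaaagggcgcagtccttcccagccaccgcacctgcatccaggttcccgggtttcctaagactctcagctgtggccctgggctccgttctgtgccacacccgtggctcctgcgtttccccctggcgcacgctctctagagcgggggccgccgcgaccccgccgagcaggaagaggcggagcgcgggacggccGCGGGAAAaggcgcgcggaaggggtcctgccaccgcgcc
CDC25A (chr3:48188418-48188667, minus strand): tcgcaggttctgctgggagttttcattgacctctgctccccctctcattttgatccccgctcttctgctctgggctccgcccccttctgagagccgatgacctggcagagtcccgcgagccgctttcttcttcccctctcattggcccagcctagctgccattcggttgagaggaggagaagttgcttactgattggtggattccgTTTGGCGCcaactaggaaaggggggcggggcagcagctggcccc
CCNE1 (chr19:29811741-29811990, plus strand): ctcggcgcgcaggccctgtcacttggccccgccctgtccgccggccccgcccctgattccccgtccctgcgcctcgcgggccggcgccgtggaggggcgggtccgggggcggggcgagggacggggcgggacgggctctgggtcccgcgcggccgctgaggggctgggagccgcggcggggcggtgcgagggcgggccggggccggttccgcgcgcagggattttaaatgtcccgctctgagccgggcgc
In MCM6 there were 4 matches in 2 overlapping pairs, whose first bases lie 152, 148, 90 and 86 bases before the start. The match begins 35 bases before the start in CDT1, 39 in TYMS and 44 in CDC25A.

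The largest differences of the group were in the G1 and G1/S cyclins. CCNE1, which encodes cyclin E1, the activator of CDK2 at the G1/S boundary, was at −1.29, −0.83 and −0.29 in CDH26 clones 1 to 3, against −0.13 and 0.13 in control clones 1 and 2. All CDH26 clones were below both controls, but clone 3 lay close to control clone 1. The difference was −0.80 ± 0.34 (SE; 95% interval −1.75 to 0.15), a 1.74-fold lower mean (limma, unadjusted p = 0.0789, adjusted p = 0.626). CCNE2, which encodes cyclin E2, was at −0.30, −0.42 and −0.23 in CDH26 clones 1 to 3, against 0.07 and −0.07 in control clones 1 and 2. Its difference of −0.32 ± 0.08 (SE) was smaller than that of CCNE1 and larger against its own spread (unadjusted p = 0.02, adjusted p = 0.626 with limma).

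CCND1, which encodes cyclin D1, the partner of CDK4 and CDK6, was at −0.67, −0.89 and −0.29 in CDH26 clones 1 to 3, against −0.24 and 0.24 in control clones 1 and 2. The controls themselves were 0.47 apart, and CDH26 clone 3 lay just below control clone 1. The difference was −0.62 ± 0.25 (SE; 95% interval −1.33 to 0.09) with all clones and −0.38 without control clone 2. The other D-type cyclins overlapped between the groups. CCND2 differed by −0.13 ± 0.11, a mean over 2 probe sets that differed by −0.12 and −0.15. CCND3 differed by 0.15 ± 0.17, with controls 0.44 apart. CCND2 was the only member that passed the adjusted threshold in any fit with a clone left out: without control clone 1 its difference was −0.30 (limma, adjusted p = 0.0406; 1.26% of all named genes passed in that fit), while without control clone 2 it was 0.03. Its 3 CDH26 values lay at −0.13, −0.13 and −0.14, and 2 were exact ties, so its spread within that group was close to 0. Within each clone, CCND1 minus CCND3 was −0.99, −0.94 and −0.37 in CDH26 clones 1 to 3, against −0.02 and 0.02 in control clones 1 and 2.

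Among the kinases and their activators, CDC25A, the phosphatase that removes inhibitory phosphate from CDK2, was at −0.47, −0.42 and −0.37 in CDH26 clones 1 to 3, against −0.13 and 0.13 in control clones 1 and 2. The CDH26 clones lay close together and below both controls, with a difference of −0.42 ± 0.09 (SE; 95% interval −0.68 to −0.16; unadjusted p = 0.0118, adjusted p = 0.626 with limma). CDK4, the kinase partner of D-type cyclins, was at −0.24, −0.22 and −0.12 in CDH26 clones 1 to 3, against 0.02 and −0.02 in control clones 1 and 2. That is a difference of −0.19 ± 0.05 (SE), with CDH26 clone 3 nearest to the controls (limma, unadjusted p = 0.0148). CDK6, which acts with the same cyclins, differed by −0.06 ± 0.07, and CDK2 by −0.03 ± 0.03, and in both the CDH26 clones lay between the control clones. For CDK2 the 3 CDH26 values were exact ties.

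**Figure D2:**
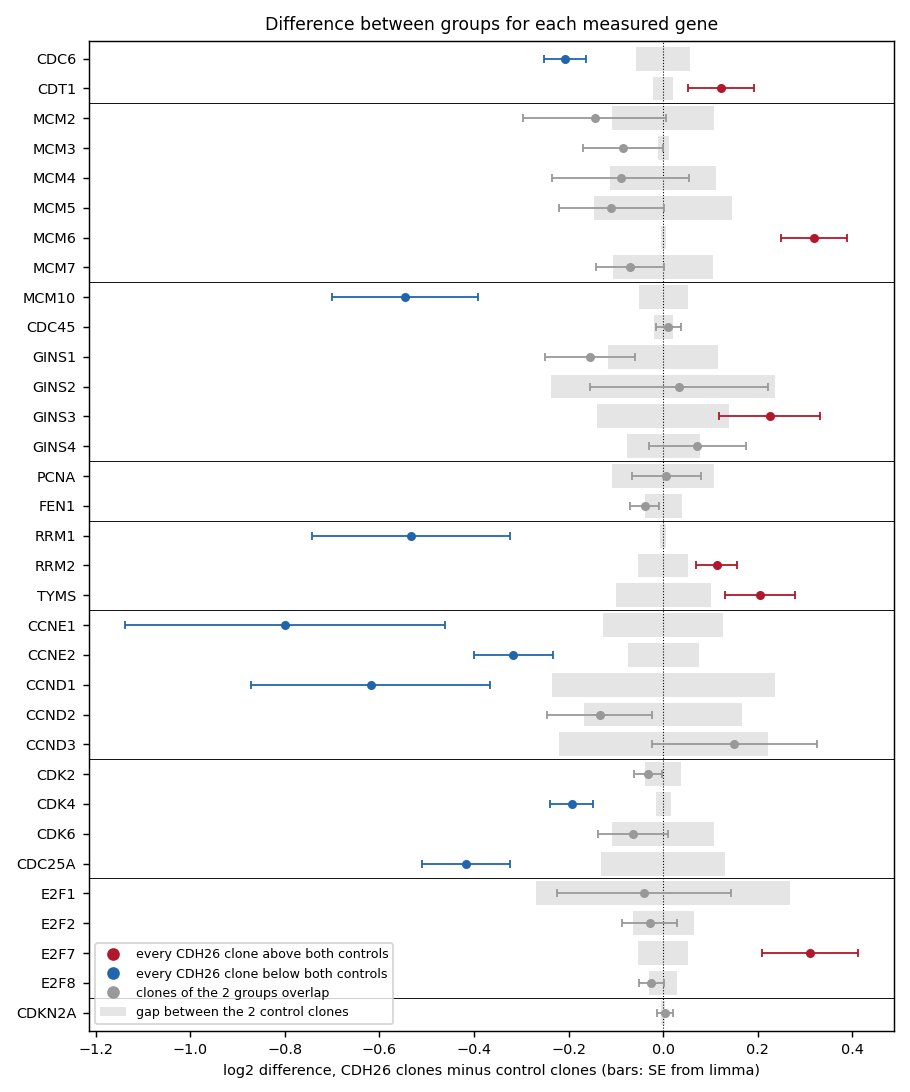
Log2 difference between CDH26 and control clones for the 33 measured genes, with the SE from limma as error bars and, as grey bars centred on 0, the gap between the 2 control clones. Blue marks the 8 genes with every CDH26 clone below both controls, red the 6 with every CDH26 clone above, and grey those that overlap; CCNE1 has the largest difference, −0.80.

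Origin licensing factors were represented by CDC6 and CDT1, the ATPase and its partner that load the MCM helicase, and they differed in opposite directions. CDC6 was at −0.23, −0.21 and −0.18 in CDH26 clones 1 to 3, against −0.06 and 0.06 in control clones 1 and 2. The difference was −0.21 ± 0.04 (SE; 95% interval −0.33 to −0.08), and it had the smallest unadjusted p of all members (0.00989; adjusted p = 0.626 with limma). CDT1 was at 0.23, 0.09 and 0.04 in CDH26 clones 1 to 3, against −0.02 and 0.02 in control clones 1 and 2. Its difference of 0.12 ± 0.07 rested largely on CDH26 clone 1, without which it was 0.07. ORC1, ORC6 and the CDT1 inhibitor GMNN had no named probe set and were not analysed here.

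In the MCM helicase, a ring of the 6 subunits MCM2 to MCM7, all of which were measured, only MCM6 had a higher mean in the clones with CDH26. MCM6 was at 0.20, 0.36 and 0.39 in CDH26 clones 1 to 3, against −0.01 and 0.01 in control clones 1 and 2. All CDH26 clones were above both controls, with a difference of 0.32 ± 0.07 (SE; 95% interval 0.12 to 0.52; unadjusted p = 0.0112, adjusted p = 0.626 with limma). The other 5 subunits all had a lower mean there, with differences from −0.07 ± 0.07 for MCM7 to −0.14 ± 0.15 for MCM2, and in none of them did the groups separate. MCM3 was at −0.01, −0.23 and −0.01 in CDH26 clones 1 to 3, against 0.01 and −0.01 in control clones 1 and 2, so its difference of −0.08 ± 0.09 came from CDH26 clone 2 alone. MCM4 and MCM5 differed by −0.09 ± 0.14 and −0.11 ± 0.11, with controls 0.22 and 0.29 apart. MCM2 came to −0.04 with control clone 1 or CDH26 clone 1 left out and to −0.25 with control clone 2 or CDH26 clone 3 left out. Without control clone 1 the differences of MCM4, MCM5 and MCM7 turned to 0.02, 0.04 and 0.04, and without CDH26 clone 1 MCM4 was at 0.01.

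The gap between MCM6 and the mean of the other 5 subunits was computed within each clone, after the values had been seen. It was 0.38, 0.49 and 0.38 in CDH26 clones 1 to 3, against −0.10 and 0.10 in control clones 1 and 2. The difference between the groups was 0.42, with an exact two-sided permutation p of 0.1, the smallest that 2 against 3 clones can give (adjusted p = 0.28 over 7 such contrasts). It came to 0.32 with control clone 1 left out and to 0.52 with control clone 2 left out.

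Of the factors that activate the loaded helicase, MCM10 had the largest difference. MCM10, a scaffold required for origin firing, was at −0.72, −0.64 and −0.29 in CDH26 clones 1 to 3, against 0.05 and −0.05 in control clones 1 and 2. The difference was −0.55 ± 0.15 (SE; 95% interval −0.98 to −0.11), a 1.46-fold lower mean (unadjusted p = 0.0252, adjusted p = 0.626 with limma), and CDH26 clone 3 was again nearest to the controls. The GINS complex, a tetramer that joins MCM and CDC45 in the active helicase, had members on both sides of 0. GINS3 was at 0.18, 0.32 and 0.18 in CDH26 clones 1 to 3, against 0.14 and −0.14 in control clones 1 and 2, a difference of 0.22 ± 0.11 that came to 0.36 with control clone 1 left out and to 0.09 with control clone 2 left out. GINS1 differed by −0.16 ± 0.09, GINS2 by 0.03 ± 0.19 and GINS4, over 2 probe sets at 0.05 and 0.09, by 0.07 ± 0.10, each with overlapping clones. GINS1 came to −0.04 with control clone 1 left out and to −0.27 with control clone 2 left out. CDC45 differed by 0.01 ± 0.03.

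At the replication fork, only PCNA and FEN1 could be read. PCNA, the sliding clamp, differed by 0.01 ± 0.07, with its CDH26 clones between the control clones. FEN1, the nuclease that removes flaps from lagging strand fragments, was at 0.04 in control clone 1 and at −0.04 in all other clones, an exact tie of 4 arrays. None of the 7 polymerase and primase symbols (POLA1, POLA2, POLD1, POLD3, POLE, POLE2 and PRIM1) had a named probe set, nor did the clamp loader subunits RFC2 to RFC5, the ligase LIG1 or the histone chaperones CHAF1A and CHAF1B. These genes were not analysed here.

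Genes of nucleotide supply differed in opposite directions. RRM1, the large subunit of ribonucleotide reductase, was at −0.86, −0.52 and −0.22 in CDH26 clones 1 to 3, against −0.01 and 0.01 in control clones 1 and 2. The controls lay close together and every CDH26 clone was below them, with a wide spread among the CDH26 clones. The difference was −0.53 ± 0.21 (SE; 95% interval −1.12 to 0.06), a 1.45-fold lower mean (unadjusted p = 0.0656, adjusted p = 0.626 with limma). RRM2, the small subunit of the same enzyme and the one whose level follows S phase, was at 0.12, 0.08 and 0.14 in CDH26 clones 1 to 3, against −0.05 and 0.05 in control clones 1 and 2. Its difference was 0.11 ± 0.04 (SE), or 0.06 without control clone 1. RRM1 minus RRM2, a contrast chosen after the values had been seen, was −0.97, −0.60 and −0.36 in CDH26 clones 1 to 3. In control clones 1 and 2 it was 0.05 and −0.05. The exact two-sided permutation p was 0.2 (adjusted p = 0.28 over 7 contrasts). TYMS, the thymidylate synthase, was at 0.21, 0.24 and 0.16 in CDH26 clones 1 to 3, against 0.10 and −0.10 in control clones 1 and 2. It differed by 0.20 ± 0.07, and by 0.10 without control clone 2. TK1, the thymidine kinase, had no named probe set.

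Of the 4 E2F factors on the list, only E2F7 separated the groups. E2F7, an atypical E2F that represses E2F targets and is itself an E2F target, was at 0.41, 0.38 and 0.15 in CDH26 clones 1 to 3, against 0.05 and −0.05 in control clones 1 and 2. All CDH26 clones were above both controls, with a difference of 0.31 ± 0.10 (SE; 95% interval 0.03 to 0.59; unadjusted p = 0.0391, adjusted p = 0.626 with limma). E2F8, the other atypical E2F, was at −0.02 in each CDH26 clone, exact ties, and at 0.03 and −0.03 in the control clones, a difference of −0.02 ± 0.03. The activators E2F1 and E2F2 differed by −0.04 ± 0.18 and −0.03 ± 0.06. E2F1 had the widest gap between the control clones of all members, 0.54, and all its CDH26 clones lay inside it. Of the CDK inhibitors, only CDKN2A could be read, and it had the same value in 4 of 5 clones, with a difference of 0.0036 ± 0.017. CDKN2B and CDKN1B had no named probe set.

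The remaining contrasts within clones, of 7 in all, gave no smaller p. All 7 were chosen after the values had been seen, and the adjustment over 7 does not cover that choice. CDC6 minus CDT1 differed between the groups by −0.33 (exact two-sided permutation p = 0.1, adjusted p = 0.28), and CCND1 minus CCND3 by −0.77 (p = 0.2 in the same exact test, adjusted p = 0.28). E2F7 minus E2F8 differed by 0.34 (exact permutation p = 0.2, adjusted p = 0.28). CCNE1 minus CCNE2 and CDK4 minus CDK6 differed by −0.48 and −0.13, each with an exact permutation p of 0.4. The first came to −0.28 with control clone 2 left out and to −0.23 with CDH26 clone 1 left out. The second came to −0.0064 with control clone 1 left out and to −0.25 with control clone 2 left out.

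The CDH26 clones departed from the controls to unequal degrees. CDH26 clone 3 was the clone nearest to the control mean in 17 of the 33 members, or 51.5% against 33.9% of all named genes; among the 24 members with 5 different values it was 16, or 66.7% against 54.4%. The median absolute value over the members was 0.18, 0.13 and 0.10 in CDH26 clones 1, 2 and 3 and 0.08 in each control clone, while over all named genes it was 0.09, 0.07 and 0.07, and 0.04 in each control clone. The controls are centred on their own mean, which draws them toward 0. Their median absolute value therefore cannot be set against that of the CDH26 clones. The median difference of the 33 members was −0.04, against 0 over all named genes, with 21 members lower and 12 higher on average with CDH26. A difference of at least 0.3 was found in 6 members on the lower side, against 5.68% of all named genes, and in 2 on the higher side, against 5.4%. The differences exceeded the gap between the control clones in 9 members on the lower side and 5 on the higher side, against 22.2% and 21.2% of all named genes. Of the 19 members whose clones overlapped, 14 changed the sign of their difference when 1 clone or another was left out (MCM4, MCM5, MCM7, CDC45, GINS2, GINS4, PCNA, CCND2, CCND3, CDK2, CDK6, E2F1, E2F2 and E2F8).

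Other genes of replication and G1/S control, from a second list of 77 symbols of which 47 were measured, were likewise mixed. At an unadjusted p under 0.05, 3 were lower and 1 higher (6.38% and 2.13%, against 4% and 3.51% of all named genes), with 0 past the adjusted threshold of limma. All CDH26 clones were below both controls in 11 (23.4%, against 9.93% of all named genes) and above both in 5 (10.6%, against 8.98%), and the median difference was −0.02. Of the 47, 53.2% had 5 different values, against 46.3% of all named genes. Among the named genes with 5 different values, 18.6% lay below and 16.4% above. The shares of this list count its tied genes too, so they cannot be set against these. TFDP1, the partner with which E2F factors bind DNA, was at −0.38, −0.40 and −0.21 in CDH26 clones 1 to 3, against −0.0032 and 0.0032 in control clones 1 and 2, a difference of −0.33 ± 0.07 (SE). MYBL2, a transcription factor that is an E2F target, differed by −0.20 ± 0.05, and MCMBP, a protein that binds MCM subunits, by −0.32 ± 0.11. ASF1A, a histone chaperone, differed by 0.27 ± 0.09. For each of these the adjusted p from limma was 0.626.

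Mitotic genes were set beside them, 40 measured of 52 listed, and 31 were higher on average with CDH26, with a median difference of 0.12. Their median was 0.08, 0.12 and 0.12 in CDH26 clones 1 to 3, against 0.11 and −0.11 in control clones 1 and 2, so the CDH26 clones lay at the level of control clone 1 and above control clone 2. All CDH26 clones were above both controls in 9 (22.5%, against 8.98% of all named genes) and below both in 0. Of the 40, 70% had 5 different values, against 46.3% of all named genes. Among the named genes with 5 different values, 16.4% lay above. The share of the mitotic list counts its tied genes too, so it cannot be set against this. At an unadjusted p under 0.05, 4 were higher and 0 lower (10% and 0%, against 3.51% and 4% of all named genes), with 0 past the adjusted threshold of limma. BUB1, a spindle checkpoint kinase, differed by 0.46 ± 0.04 (SE), KIF2C, a microtubule-depolymerising kinesin, by 0.27 ± 0.06, BUB1B by 0.21 ± 0.07 and PTTG1, which encodes securin, by 0.50 ± 0.16. Without control clone 1, BUB1 and KIF2C passed the adjusted threshold (limma, adjusted p = 0.0406 and 0.0417), as did 1.26% of all named genes in that fit. Without control clone 2 none of the 4 passed it, and PTTG1 was at 0.29, BUB1B at 0.13 and KIF2C at 0.18. Whether this list differed from the G1/S and replication genes was not tested.

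**Figure D3:**
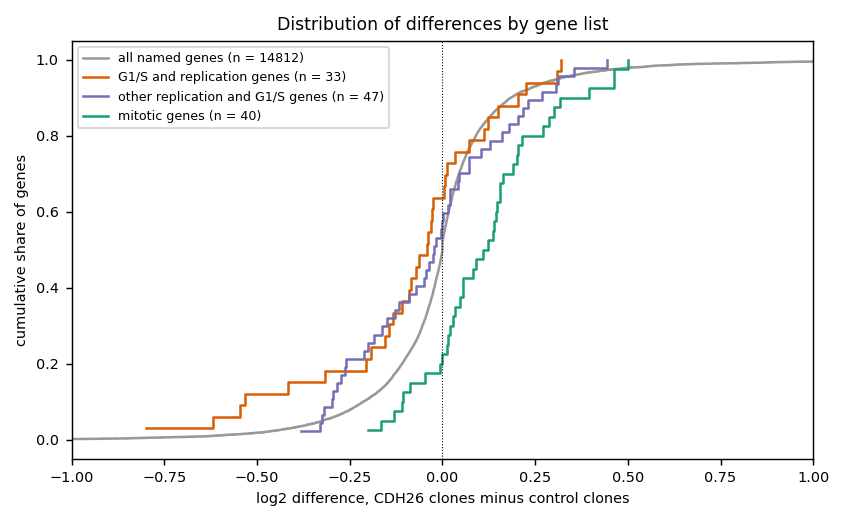
Cumulative share of genes (vertical axis) by log2 difference between CDH26 and control clones (horizontal axis) for all 14812 named genes, the 33 G1/S and replication genes, 47 other replication and G1/S genes and 40 mitotic genes; 96 of the named genes lie outside the axis. The curve of the 33 genes runs to the left of that of all genes at differences below 0, with 6 genes at or below −0.3, and the mitotic curve lies to the right of all genes over most of the axis.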

How the data were processed

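Gene 2.0 ST arrays (Affymetrix) measured 5 TE7 clones, 1 array each. The submitters' processing notes name Affymetrix Expression Console; its version, the summarisation and the build are not stated in the sources used. The authors' deposited values are log values, taken here as log2 (the base is not recorded), and were centred per probe set on the control mean: the 2 control values of each row sum to at most 1e-06. No level, background or brightness filter can be had from them.

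Gene names came from the platform annotation (15835 probe sets of 44607, each with 1 gene), and probe sets of a gene were averaged. The CDH26 and control clones were compared by limma 3.58.1, run in R 4.3.3 (lmFit, then eBayes; two-sided; group only; Benjamini-Hochberg over 14812 genes, threshold 0.05; prior degrees of freedom 0.885). The step was tested only on simulated independent values without ties and with shifts larger than the difference of any member. Whether it can call differences of the size seen in the members was not tested. P-values from limma set the difference between the groups against the spread of these clones within a group, as moderated by eBayes. Values within 1e-05 counted as tied. Members and lists were chosen with earlier results of these data known. Every measured member was named; clone values were given for the 2 smallest p per role (1 where under 3 were measured) and for differences of at least 0.3, and of each other cell cycle list the 4 smallest p were named. Clone values of CDT1 were added after its values were seen, as were LUM, CD68 and the 7 within-clone contrasts. Alternatives were array median centring, 1 probe set per gene, natural logarithms, genes with 5 different values, a robust variance with trend, weights per array, a replicate block, a threshold of 0.1 and each clone left out.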

Additional observations from a re-analysis of the deposited data

How the results depend on the processing

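The median of every array was already 0, so centring on it could change nothing. Among the members only CCND2 and GINS4 had more than 1 probe set. Taking the probe set with the largest spread left each count over the members as it was. Natural logarithms rescale all values alike and so could change only the size of differences. Among genes with 5 different values CDH26 (2.84, adjusted p = 0.0106 with limma) was the 1 gene called and the members' median difference was −0.077. The count of members higher at an unadjusted p under 0.05 was 1 with trend and robust variance, and 1 with the replicate block. Of all named genes, 2.4% and 3.32% were higher in these fits. With the replicate block 7 members were lower, against 4.64% of all named genes, and 0 passed the adjusted threshold. The clones share only a number (correlations of −0.198 and −0.205 between same-numbered deviations). Leaving out each clone in turn gave 0 to 186 genes called and 0 to 1 members called, the highest values without control clone 1, where the remaining control is taken to have the spread of the CDH26 group. Over the same fits members wholly above ranged from 6 to 12 and those wholly below from 8 to 18. The median difference ranged from −0.078 (without control clone 2) to −0.032. With a CDH26 clone left out, members at an unadjusted p under 0.05 ranged from 1 to 2 higher and 3 to 8 lower. In those fits 1.87% to 4.11% of all named genes were higher and 1.67% to 5.55% lower. The highest counts of wholly separated members came without a control clone, where the shares of all named genes were highest too. Those shares were 25.9% above and 27% below without control clone 1, and 23.8% and 25.7% without control clone 2. The E2F8 difference ranged from −0.055 to 0.0051, turning sign without control clone 1. Its tied CDH26 values lay between the values of the 2 control clones. The same 0 genes and 0 members passed an adjusted p of 0.1. With values relative to the controls, the signal over background of each gene is unknown.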
